A study of Danio rerio with 2 samples.

Results

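Broad open sites were the accessible regions found in both ATAC-seq replicates whose widest peak measured 700 bp or more in each list. They numbered 561 of 13698 shared regions on chromosomes 1 to 25, or 4.10% (95% Wilson interval 3.78 to 4.44), and of 35191 regions found in either list. The cells were CD41+ gata1- cells sorted by flow cytometry from zebrafish of the Tg(CD41:GFP,gata1:dsRed) line, in which CD41 drives a green and gata1 a red fluorescent reporter, and the labels call them hematopoietic stem cells. All samples shared this genotype and sort, so the series holds 1 group of 2 replicates and no treated or mutant group. The titles carry the tag 3m without saying what it means, and nothing in the labels states that the replicates came from separate animals. CD41 marks thrombocytes as well as early blood stem and progenitor cells, so the reporters alone do not settle the cell type, and peak positions give no expression by which to check it.

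ATAC-seq reads open DNA through a transposase that cuts where nucleosomes are absent or displaced, as they are at active promoters and enhancers. A narrow peak usually marks a single nucleosome-free stretch. A wide peak can span neighbouring nucleosome-free stretches, or one whose flanking nucleosomes are also displaced, and wide sites are known from promoters of active genes and from clustered enhancers. Sites are given by GRCz10 position, since a genome and gene annotation of that build were not used here.

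The deposited lists held 33700 nuclear peaks for replicate 1 and 15814 for replicate 2. Read totals were not used here. The genome-wide background that the peak caller used, recovered from the deposited folds and p values, was a pileup of 1.32 extended reads in replicate 1 and 0.578 in replicate 2, a ratio of 2.28, so replicate 1 carries the smaller counting error. Regions are sites and not replicates of a condition, so values over regions are described in each library with no test. Wilson intervals cover counting error only.

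Regions broad in both libraries, 561, were somewhat fewer than those broad in replicate 1 only, 612, and those broad in replicate 2 only, 601. Of the shared regions, 1173 reached 700 bp in replicate 1, which is 8.56% (95% Wilson interval 8.11 to 9.04). In replicate 2 they were 1162, or 8.48% (8.03 to 8.96). The product of both shares corresponds to 99.5 regions, against the 561 that reached the width in both. Both widths were used to choose the members, so this count is a description.

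Among the 561 broad regions the widest peak had a median of 826 bp in replicate 1, with quartiles of 759 and 923 bp. In replicate 2 the median was 810 bp, with quartiles of 751 and 909 bp. The 13137 narrower shared regions had medians of 380 bp in replicate 1 and 339 bp in replicate 2. Most members lay not far above the threshold, with 246 regions at 800 bp or more in both lists, 88 at 900 bp or more, 39 at 1000 bp or more and 10 at 1200 bp or more. Together the broad regions covered 0.516 Mb, which is 7.59% of the merged length of all shared regions.

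**Figure D1:**
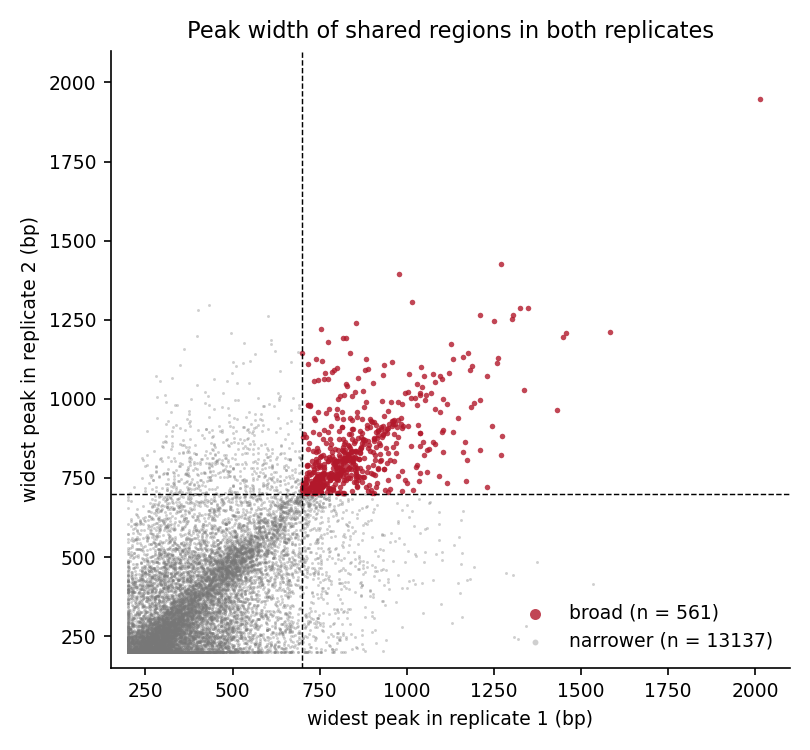
Width of the widest peak in replicate 1 (x axis, bp) and replicate 2 (y axis, bp) for 561 broad (red) and 13137 narrower (grey) shared regions, each point 1 region, with dashed lines at 700 bp. The broad regions fill the upper right part, and 1 region, at 2016 and 1947 bp, stands away from the others.

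A single long peak formed most of these sites in each library. In 542 of the 561 broad regions, or 96.6%, 1 peak of replicate 1 met 1 peak of replicate 2, against 95.5% of narrower regions. Several replicate 1 peaks fell into 15 broad regions and several replicate 2 peaks into 6. The peak of replicate 1 was the wider one in 356 broad regions, 63.5%, and in 65.1% of narrower regions.

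The widest site lay on chromosome 5 at 825923 to 827943, near the start of the chromosome. Its peak measured 2016 bp in replicate 1 and 1947 bp in replicate 2, with folds over the local background of 9.18 and 9.59 and summits 17 bp apart. Its local background, a pileup of 45.9 in replicate 1 and 22.04 in replicate 2, was the highest of all broad regions, whose median was 3.70 in replicate 1 and 1.94 in replicate 2. The lower edges differed by 74 bp and the upper edges by 5 bp.

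The other 9 of the 10 widest sites, ranked by the smaller width of each pair, measured from 1207 to 1584 bp. Chromosome 5 held a pair of them besides the widest. At 53747820 to 53749144 the widths were 1325 and 1288 bp, with folds of 19.2 and 13.7, and at 30385940 to 30387213 they were 1210 and 1266 bp, with folds of 10.7 and 10.0. On chromosome 3 at 42948347 to 42949694 the widths were 1348 and 1286 bp, with folds of 8.33 and 11.1.

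Chromosome 8 carried the site with the closest pair of widths among these 10, 1250 bp in replicate 1 and 1245 bp in replicate 2 at 1200372 to 1201633, with folds of 16.2 and 16.6. On chromosome 1 at 39296528 to 39297832 the widths were 1305 and 1264 bp and the folds 10.1 and 8.71. On chromosome 12 at 13166683 to 13167984 they were 1302 and 1253 bp with folds of 13.9 and 11.2. These 3 sites kept both edges within 48 bp between the libraries.

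The remaining 3 of the widest sites agreed less closely. On chromosome 6 at 45532923 to 45534489 the widths were 1270 and 1425 bp, and the upper edges lay 297 bp apart. On chromosome 22 at 35112533 to 35113989 they were 1457 and 1207 bp, and the upper edges lay 232 bp apart. On chromosome 11 at 25182119 to 25183746 they were 1584 and 1211 bp, with the lower edges 417 bp apart and folds of only 3.71 and 4.64, the lowest lower fold of all broad regions.

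At the threshold, widths alone separate members from the rest. Just inside lay the site on chromosome 16 at 5712677 to 5713458, with 700 and 712 bp, and that on chromosome 4 at 14208062 to 14208792, with 700 and 720 bp. The third, on chromosome 20 at 54855421 to 54856633, had 700 and 1146 bp. Just outside, on chromosome 2 at 19181170, chromosome 21 at 15185920 and chromosome 5 at 9113925, replicate 2 peaks of 699 bp met replicate 1 peaks of 814, 880 and 796 bp, in that order.

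Choosing sites on the width in 1 replicate leaves the width in the other outside the choice. Of the 1173 regions at 700 bp or more in replicate 1, 47.8% also reached it in replicate 2 (95% Wilson interval 45.0 to 50.7), against 4.80% of the regions narrower in replicate 1 (4.44 to 5.19). In the reverse direction the shares were 48.3% (45.4 to 51.2) and 4.88% (4.52 to 5.27). The share was higher for wider peaks. Replicate 1 peaks of 600 to 699 bp had a replicate 2 peak of 700 bp or more in 12.9% of regions, those of 700 to 799 bp in 37.0%, those of 900 to 999 bp in 60.4% and those of 1200 bp or more in 75.9% of 29 regions.

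The regions broad in 1 list only numbered 612 for replicate 1 and 601 for replicate 2. Their widest peak in the other list had a median of 495 bp in replicate 2 and 488 bp in replicate 1. A further difference was how the other list divided the site. Several replicate 1 peaks stood within 236 of the 601 regions broad in replicate 2 only, or 39.3% (35.4 to 43.2), while several replicate 2 peaks stood within 102 of the 612 broad in replicate 1 only, or 16.7% (13.9 to 19.8). The replicate 1 list is also the longer one, with 33700 against 15814 peaks. Over all narrower regions, which include these, several replicate 1 peaks stood in 3.31% and several replicate 2 peaks in 1.24%.

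Broad peaks without any partner were rare. Of 1234 replicate 1 peaks of 700 bp or more, 61 had no replicate 2 peak, which is 4.94% (95% Wilson interval 3.87 to 6.30), against 60.02% of replicate 1 peaks under 700 bp. In replicate 2, 2 of 1164 peaks lacked a partner, or 0.172% (0.0471 to 0.624), against 13.3% of those under 700 bp. The 61 peaks of replicate 1 had a median fold of 5.56 and a median width of 746 bp. Peaks of 700 bp or more also had the higher median fold, 10.1 against 5.60 in replicate 1 and 9.52 against 6.34 in replicate 2. The shares without a partner were not matched for fold. They also depend on list length, 33700 peaks in replicate 1 and 15814 in replicate 2.

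In strength, broad sites had higher medians than narrower ones in both libraries. The fold at the summit, as the authors' caller computed it, was at a median of 12.4 in broad regions and 8.39 in narrower regions in replicate 1, a ratio of 1.48. In replicate 2 the medians were 9.86 and 6.82, a ratio of 1.45. The summit was covered by a median of 55 extended reads in broad and 26 in narrower regions in replicate 1, and by 29 and 13 in replicate 2. Width and height come from the same pileup of reads, so these medians describe the members and do not test them. Among regions with a −log10 q of at least 10 in both lists, the ratios were 1.07 in replicate 1 and 1.10 in replicate 2. At a given summit pileup the fold varies with the local background alone, which includes the reads of the site itself. Where regions were binned by summit pileup, few bins had the higher median fold in broad regions. With 41 to 60 extended reads it was 12.1 in broad and 12.5 in narrower regions in replicate 1. In replicate 2 it was 13.2 and 14.2. With 11 to 20 the medians were 6.34 and 5.98 in replicate 1, and 7.14 in both classes in replicate 2. The median local background was 3.70 in broad and 2.22 in narrower regions in replicate 1. In replicate 2 it was 1.94 and 1.04.

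**Figure D2:**
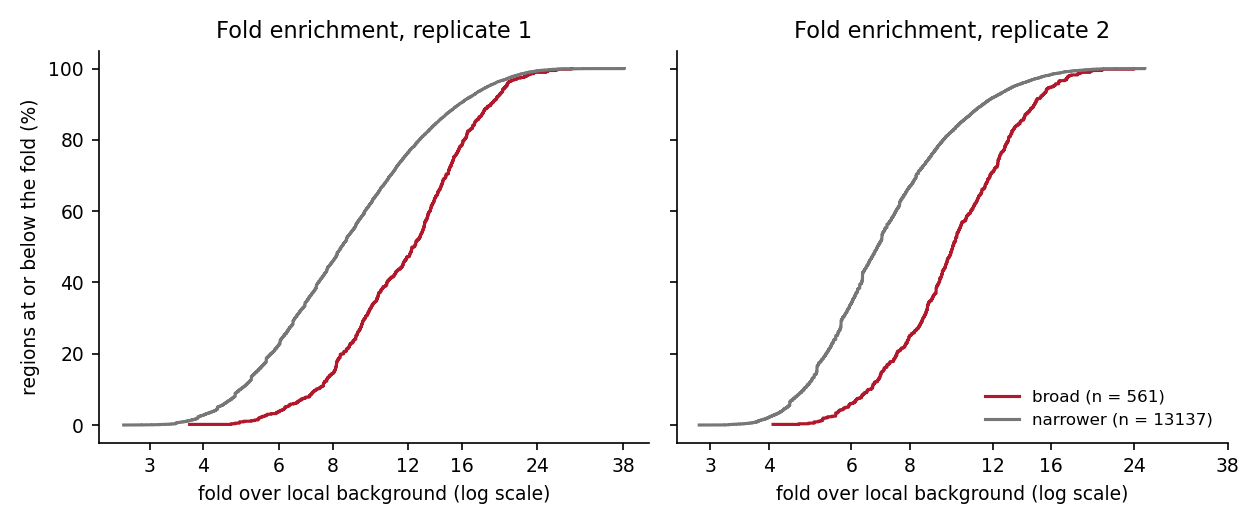
Cumulative share of regions (y axis, %) at or below a fold over local background (x axis, log scale) in each replicate, for 561 broad (red) and 13137 narrower (grey) shared regions. The broad curve lies to the right of the narrower one over most of the range, and the medians are 12.4 against 8.39 in replicate 1 and 9.86 against 6.82 in replicate 2.

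Part of the broad sites had modest folds. In replicate 1, 112 of the 561, or 20.0%, had a fold below the median of narrower regions, and in replicate 2 this held for 69, or 12.3%. Of the 100 strongest shared regions by fold, 6 were broad in replicate 1 (95% Wilson interval 2.78 to 12.5%) and 10 in replicate 2 (5.52 to 17.4%), against 4.10% of all shared regions. The Spearman correlation of width with fold across the 561 regions was -0.05 in replicate 1 and 0.04 in replicate 2, against 0.36 and 0.46 across all 13698 shared regions, which share libraries and depth. With the summit pileup it was 0.07 in replicate 1 and 0.19 in replicate 2 across the broad regions. The rule cut the widths of the broad regions at 700 bp, so correlations weaker than over all shared regions can follow from the choice alone.

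Broad sites made up a larger share of the regions with higher summits. In replicate 1 it was 0.376% of 3988 regions whose summit held 11 to 20 extended reads, 7.29% of 1933 regions with 41 to 60 and 17.4% of 333 regions with more than 120. In replicate 2 it was 2.26% of 6062 regions with 11 to 20, 18.6% of 548 regions with 41 to 60 and 27.7% of 47 regions with 81 to 120. None of the 513 replicate 1 regions with at most 10 extended reads was broad, and with 0 counted the Wilson interval reaches 0.743%.

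By fold the strongest members were led by the site on chromosome 17 at 1610349 to 1611143, where folds of 28.8 and 23.99 met widths of 748 and 787 bp. It was followed by chromosome 20 at 42343833 to 42344659, with folds of 22.4 and 20.5, and chromosome 23 at 42983523 to 42984480, with 20.6 and 20.5. Then came chromosome 11 at 43334280 to 43335060, with 23.0 and 19.6, and chromosome 8 at 19968174 to 19968977, with 23.6 and 19.3. All 5 were at most 926 bp wide in both libraries, and their summits lay 0 to 48 bp apart.

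At the other end, after the chromosome 11 site at 25182119 named above, stood the chromosome 13 region at 1050831 to 1052122, with folds of 13.1 in replicate 1 and 4.09 in replicate 2. Each list held several peaks in this region. Its widest peaks, 714 and 765 bp, shared 14.5% of their joined length, so they marked mostly different stretches of the merged region. The next weakest members were a site near the start of chromosome 10, at 76165 to 77191, with folds of 4.64 and 5.22, and one at 14044099 to 14044836 on chromosome 11, with folds of 4.74 and 4.86. A further one lay on chromosome 10, at 44440877 to 44441659, and its folds were 4.85 and 6.93.

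The summit, which the rule did not use, sat away from the middle of most broad sites. A peak was split into a central section, from 33.3 to 66.7% of its width, and an outer section to either side. Summits fell into the central section in 25.7% of broad regions in replicate 1 (95% Wilson interval 22.2 to 29.4), against 67.9% of narrower regions (67.1 to 68.7). In replicate 2 the shares were 32.3% (28.5 to 36.2) and 57.2% (56.4 to 58.1).

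**Figure D3:**
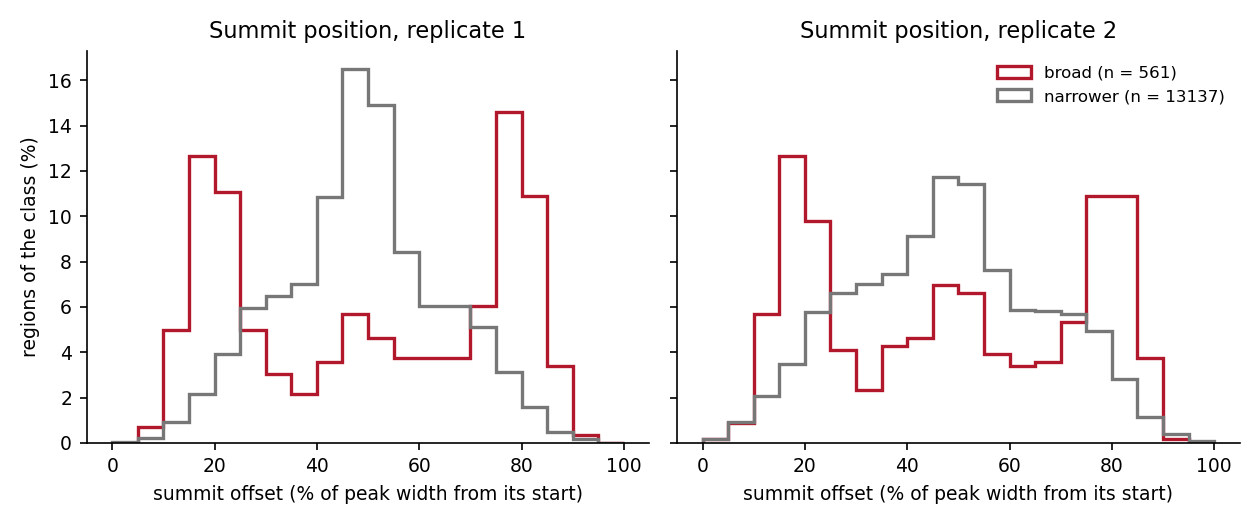
Position of the summit within the widest peak (x axis, % of peak width from its lower edge) against the share of regions of the class (y axis, %) in each replicate, for 561 broad (red) and 13137 narrower (grey) shared regions. Broad summits are spread to both flanks, with 25.7% in replicate 1 and 32.3% in replicate 2 in the central section, while narrower summits gather at the centre.

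The summit kept a short distance to 1 edge while the other edge lay far out. In broad regions the nearer edge was a median of 190 bp from the summit in replicate 1 and 185 bp in replicate 2, and the farther edge 619 and 605 bp. In narrower regions the nearer edge was 146 and 120 bp away and the farther edge 206 and 190 bp. The distance to the farther edge follows in part from the width that chose the members. An extended read of 200 bp in a window of 10 kb would give the steps of 0.02 seen in the recovered backgrounds. The nearer distances are of the order of that read length, and whether they follow from it was not tested.

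This shape was not limited to the chosen sites and began at smaller widths. Over all shared regions, replicate 1 peaks of 300 to 399 bp had a nearer distance of 155 bp and a farther one of 187 bp, and 94.0% of their summits were central. At 500 to 599 bp the distances were 167 and 376 bp, with 32.3% central. At 700 to 799 bp they were 178 and 560.5 bp, with 26.6% central, and at 1000 to 1199 bp they were 194.5 and 843.5 bp. Replicate 2 gave 148 and 190 bp at 300 to 399 bp, 155 and 390 bp at 500 to 599 bp and 173 and 564 bp at 700 to 799 bp, but at 1000 to 1199 bp its nearer distance was 332.5 bp. Its central share was 83.7% at 300 to 399 bp and 20.3% at 500 to 599 bp. It was 27.7% at 700 to 799 bp and 44.7% at 1000 to 1199 bp. Just under the threshold, at 600 to 699 bp, central summits made up 25.6% in replicate 1 and 19.4% in replicate 2. Peaks of that width were thus no more central than the broad regions, at 25.7% and 32.3%.

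**Figure D4:**
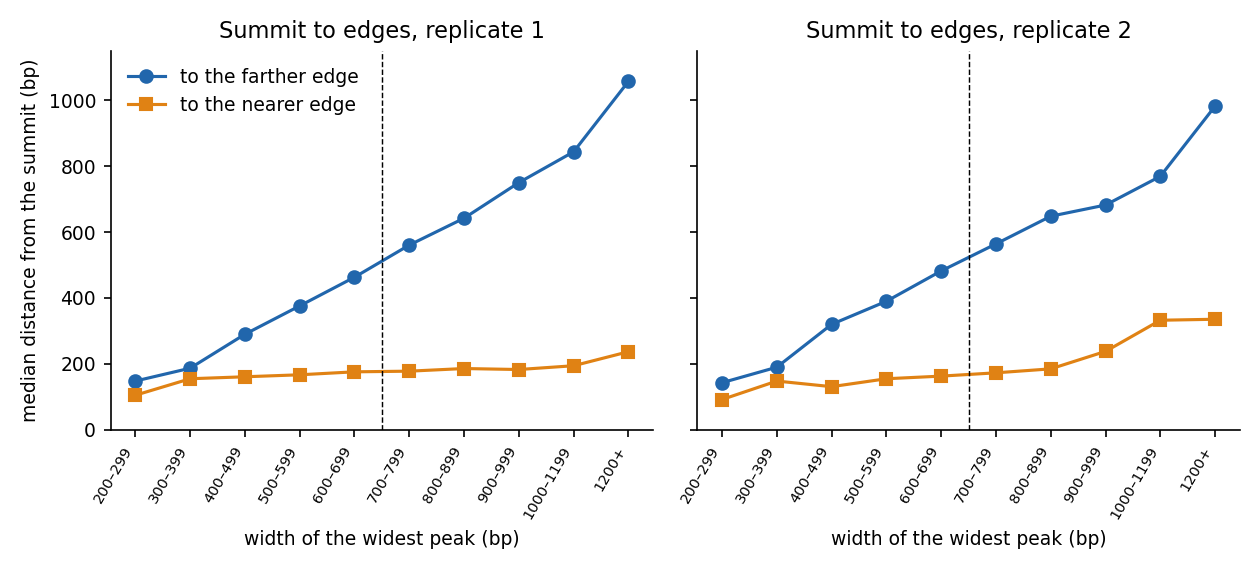
Median distance from the summit to the nearer (orange squares) and the farther edge (blue circles) of the widest peak (y axis, bp) by the width of that peak (x axis, bp) over all shared regions, in each replicate, with a dashed line at 700 bp. The nearer distance stays between 155 and 194.5 bp from 300 to 1199 bp in replicate 1, while the farther one reaches 843.5 bp.

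Within bins of fold the shares of central summits also differed. The bins match the fold alone, since at folds of 8 to 10 the median summit pileup was 36 extended reads in broad and 27 in narrower regions in replicate 1, and 25 and 18 in replicate 2. Among regions with folds of 8 to 10, 30.6% of 111 broad regions had a central summit in replicate 1 (95% Wilson interval 22.8 to 39.7), against 68.9% of 2327 narrower regions (67.0 to 70.8). In replicate 2 the shares were 40.5% of 148 broad regions (33.0 to 48.6) and 58.6% of 2134 narrower regions (56.5 to 60.7). At folds of 12 to 16 they were 23.9% and 71.8% in replicate 1, and 28.4% and 57.6% in replicate 2. Regions were also binned by summit pileup, with the offset of the summit from the peak centre in percent of the centre-to-edge distance. With 41 to 60 extended reads the median offset was 58.4% in broad and 15.2% in narrower regions in replicate 1. In replicate 2 it was 51.9% and 24.6%. In every pileup bin that held broad regions, the broad median offset was the larger one. When sites were chosen on the width in the other replicate alone, central summits made up 41.3% of those chosen as broad and 68.4% of the rest in replicate 1, and 36.1% and 58.1% in replicate 2.

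The flank that held the summit was mostly the same in both libraries. Summits lay on the same side of the peak centre in 452 of 561 broad regions, or 80.6% (95% Wilson interval 77.1 to 83.6), against 58.2% of narrower regions (57.4 to 59.0), whose summits lie close to the centre. Among the 271 regions with both peaks between 600 and 699 bp they did so in 211, so this was not limited to broad regions. Neither direction along the chromosome prevailed, since the summit was in the lower part of the peak in 48.8% of broad regions in replicate 1 and 51.5% in replicate 2. Both summits stood in the lower outer section in 154 regions, in the upper one in 148 and in the central section in 102.

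In 36 broad regions the summits stood in opposite outer sections, a median of 517.5 bp apart. Their median folds were 9.11 against 13.2 in replicate 1, and 7.51 against 10.3 in replicate 2, when set beside the regions with both summits on 1 flank. Over all broad regions the median distance between the summits was 20 bp, against 29 bp in narrower regions. Far separations were also more frequent, with 69 broad regions, or 12.3%, over 300 bp apart, against 4.83% of narrower regions, many of which are too short to allow it.

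The largest separations, chosen after their values were seen, show a long peak with a summit at either end. On chromosome 14 at 300195 to 301246, peaks of 1052 and 996 bp with folds of 7.75 and 7.96 had their summits 768 bp apart. On chromosome 25 at 221987 to 223034, peaks of 1048 and 865 bp with folds of 7.06 and 6.14 had them 724 bp apart. The chromosome 13 region at 1050831, with 882 bp, joins several peaks of each list.

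Edges of regions broad in both lists differed less between the libraries than those of narrower regions. The lower edges of the widest peaks differed by a median of 29 bp and the upper edges by 25 bp, against 41 bp at either edge in narrower regions. The length shared by both peaks was a median of 91.6% of their joined length in broad regions and 72.5% in narrower regions. Both edges lay within 50 bp of each other in 49.9% of broad regions (95% Wilson interval 45.8 to 54.0), against 32.8% of narrower regions (32.0 to 33.6).

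The rule itself favours such agreement, because it asks for a long peak in both lists. Sites chosen on replicate 1 alone shared 80.4% of their joined length and those chosen on replicate 2 alone 74.9%. By distance these sets agreed less than narrower regions. Both edges lay within 50 bp in 28.4% and 25.6% of them, against 32.8% of narrower regions, and an edge lay over 200 bp apart in 39.8% and 47.4%, against 20.5%. Regions with both peaks between 600 and 699 bp, held to a narrow range of widths, shared 94.1%. Their edges were closer than those of broad regions, with medians of 19 bp at the lower and 17 bp at the upper edge. Both edges lay within 50 bp in 80.8% of them, and an edge lay over 200 bp apart in 0.369%, against 13.9% of broad regions. In broad regions with both summits on the same side, the edge near the summit differed by a median of 26 bp and the edge far from it by 29 bp.

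The largest disagreements in width came from sites that 1 list had divided. All 5 members with the largest ratio of widths had several peaks in 1 of the lists, as on chromosome 19 at 40438686 to 40439945, where 1231 bp in replicate 1 met 722 bp in replicate 2. On chromosome 20 at 54855421 the widths were 700 and 1146 bp, and on chromosome 11 at 38285608 to 38286881 they were 755 and 1221 bp. On chromosome 14 at 6900753 to 6901967 they were 1169 and 739 bp, and on chromosome 15 at 509712 to 511128 they were 1271 and 821 bp.

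A smaller share of broad sites had a close neighbour. The nearest other shared region was within 5 kb, midpoint to midpoint, for 35 of 561 broad regions, or 6.24% (95% Wilson interval 4.52 to 8.55), against 19.7% of narrower regions (19.0 to 20.4). Within 50 kb the shares were 71.7% and 77.1%, and the median distances were 22.8 and 18.2 kb. Measured between facing edges, 8.38% and 21.4% had a neighbour within 5 kb. Within 1 kb the shares were 3.03% and 11.2%, so part of the contrast at 5 kb lies at these short gaps. Whether close sites joined or divided by the caller enter these shares was not tested. Against all peaks of each list, 18.9% of broad and 37.5% of narrower regions had another replicate 1 peak within 5 kb, and 9.98% and 24.3% another replicate 2 peak. With peaks of 1 list alone classed by width, a neighbour within 5 kb was found for 19.0% of broad and 31.4% of narrower replicate 1 peaks, and for 10.4% and 25.3% of replicate 2 peaks.

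Within bins of fold, which do not match the summit pileup, the broad shares were also the smaller ones at the folds given here. In replicate 1 a neighbour within 5 kb was found for 8.11% of broad and 18.4% of narrower regions at folds of 8 to 10, and for 5.11% and 14.2% at folds of 12 to 16. In replicate 2 the shares were 8.78% and 17.0% at folds of 8 to 10, and 2.24% and 11.6% at folds of 12 to 16.

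**Figure D5:**
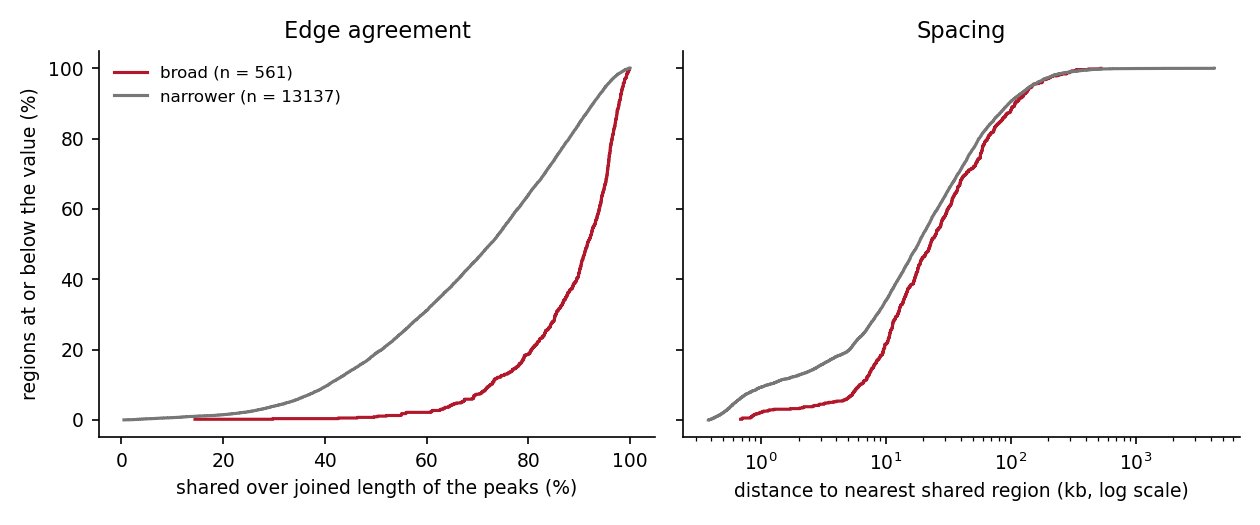
Cumulative share of regions (y axis, %) by the shared over joined length of the widest peaks (left, x axis in %) and by the distance to the nearest other shared region (right, x axis in kb, log scale), for 561 broad (red) and 13137 narrower (grey) shared regions. The broad curve lies to the right over most of the range in both panels, with medians of 91.6% against 72.5% and of 22.8 against 18.2 kb.

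Broad sites were not clearly gathered next to one another. The nearest shared region of a broad region was itself broad in 4.10% of cases (95% Wilson interval 2.75 to 6.08), and for narrower regions in 3.85% (3.54 to 4.19). No pair of broad regions lay within 5 kb, and with 0 of 561 the Wilson interval reaches 0.680%. A broad region within 5 kb was also rare for narrower regions, with 35 of 13137, or 0.266%. Within 10 kb the shares were 1.07% of broad and 0.967% of narrower regions, and within 50 kb 7.49% and 6.16%. The median distance between neighbouring broad regions was 1618 kb.

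The closest pair, 7.99 kb apart, lay on chromosome 18 at 37270463 to 37271218 and 37278418 to 37279237. Their widths were 756 and 723 bp for the first and 798 and 786 bp for the second. Next came pairs on chromosome 14 at 44833836 and 44843599, 9.79 kb apart, and on chromosome 10 at 21477128 and 21486874, 9.80 kb apart. Pairs on chromosome 17 at 12877710 and 12891563 and on chromosome 5 at 22453298 and 22470084 lay 13.9 and 16.9 kb apart. Folds in these pairs ran from 7.03 to 20.4.

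Of 1351 bins of 1 Mb, 892 held no broad region, 368 held 1, 81 held 2 and 9 held 3. The single bin with 4 lay on chromosome 1 from 39000001 to 40000000, with 33 shared regions in all, and includes the fifth widest site. Of all broad regions 36, or 6.42%, lay in the first or last 1 Mb of a chromosome, against 5.85% of narrower regions.

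Every chromosome carried broad sites, from 7 on chromosome 22 to 36 on chromosome 5. Their share of the shared regions rests on these small counts, which do not settle how much it varies. It ran from 1.97% on chromosome 22, with 7 of 355 (95% Wilson interval 0.958 to 4.01), to 5.56% on chromosome 25, with 21 of 378 (3.66 to 8.34). The intervals of 24 of the 25 chromosomes held the genome-wide share of 4.10%, and that of chromosome 22 lay below it. In each list alone, peaks of 700 bp or more made up 2.47% of the chromosome 22 peaks and 3.66% of all peaks in replicate 1, and 5.42% and 7.36% in replicate 2. Chromosome 22 was picked as the lowest of 25, and each list holds the widths that chose the members. These shares are therefore no separate check. Chromosome 6 had the highest density, with 35 broad regions or 0.581 per Mb, and chromosome 4 the lowest, with 12 or 0.157 per Mb. On chromosome 4, 10 of 322 shared regions before 27 Mb were broad and 2 of 109 from there on, 3.11% (1.70 to 5.62) and 1.83% (0.505 to 6.44). The longest stretch without a broad region, 49060 kb, also lay there, between the sites at 27139757 and 76199700.

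Summit height was compared between the libraries by a two-sided exact binomial test of both summit pileups in every one-to-one pair, against the ratio of the summed pileups, 2.12, with Benjamini-Hochberg adjustment over all 13094 pairs. Of the 542 broad pairs, 2 passed an adjusted p of 0.05, which is 0.369% (95% Wilson interval 0.101 to 1.34), against 0.428% of all pairs. The share of called members was thus near the background. An unadjusted p under 0.05 was found in 61 broad pairs, 11.3%, and in 7.07% of narrower pairs. The summed pileup had a median of 83.5 in broad and 40 in narrower pairs, so these shares rest on unlike counts. The test compares 2 libraries and treats extended reads as independent.

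The 2 sites went in opposite directions. On chromosome 17 at 39991182 to 39992285 the summit held 260 extended reads in replicate 1 and 38 in replicate 2, with an adjusted p of 2.89e-11 by the exact binomial test, although the folds were 13.3 and 13.1, over local backgrounds of 18.6 and 1.98. Its peak measured 1104 bp in replicate 1 and 832 bp in replicate 2, with the lower edges 236 bp apart. On chromosome 16 at 29623727 to 29624555 it held 68 and 70, with an adjusted p of 0.00270 by the same exact test and folds of 14.9 and 17.1. Among all pairs 0.374% were called higher in replicate 1 and 0.0535% higher in replicate 2. Of the 391 broad pairs with 60 or more extended reads in sum, 0.512% passed this main test, against 1.54% of 3173 such narrower pairs. When pairs under 60 were left out, the ratio of summed pileups was recomputed and became 2.35. Against that ratio 10 of 391 broad pairs passed, or 2.56%, against 1.82% of all such pairs. Of these 10, 1 was higher in replicate 1, against 1.23% of all such pairs, and 9 were higher in replicate 2, or 2.30% (95% Wilson interval 1.22 to 4.32), against 0.589%. Leaving out pairs under 60 moved the median ratio of narrower pairs from 2 to 2.36, and that of broad pairs from 1.93 to 1.97. The 9 calls are thus relative to a reference ratio that rose with the filter.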

How the data were processed

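ATAC-seq libraries of 2 replicates were analysed from 1 deposited peak list each. Per the labels' protocols, 50000 fresh cells were transposed with a Vazyme kit and amplified for 11 PCR cycles. Bowtie2 2.5.0, SAMtools 1.9, Picard, MACS2, HTSeq 0.8.0, DESeq2 and GRCz10 are named per the submitters' processing notes, without roles. How the caller was set, and whether cut sites were offset for the transposase, is not given in the sources used here; an offset moves edges and summits by a few bases.

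The fold is the ratio of summit pileup to local background, each plus 1, deposited by the authors; the local background includes the reads of the site itself, and no molecular identifiers are named, so extended reads may hold PCR copies. Each deposited peak also carries a −log10 p and a −log10 q. The deposited score equals 10 times the −log10 q, cut to a whole number, in 100% of peaks. Positions are printed 1-based.

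Overlapping peaks (1 bp or more) of both lists were merged. Widths are those of the widest peak of each list in a region. Whole-number summit pileups matched the deposited −log10 p within 0.0002 for all nuclear peaks, with a second match at 29 replicate 2 peaks, settled by the background step of 0.02. Calculations used Python 3.11.15, pandas 2.3.3 and SciPy 1.17.1 and were tested on simulated data.

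Members, lists and tests were chosen with earlier results of these data known. Sites were named by rank of lower width (10), lower fold (5 highest, 5 lowest), width ratio (5), closeness to the threshold (3 to either side), closeness to each other (5 pairs) and the test of pileups. Alternatives were other widths, stricter q, reciprocal overlap, 1 peak of each list, equal list length and each list alone. Genes and sequences were not analysed here, since the gene tables at hand belong to another build.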

Additional observations from a re-analysis of the deposited data

Results flagged for a closer look

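Peaks of 700 bp or more were also found on the mitochondrial chromosome, which enters none of the comparisons above and was noted because it holds signal outside the nuclear peaks. Replicate 1 had 5 of them among 8 mitochondrial peaks and replicate 2 had 5 among 7. The narrowest and the widest mitochondrial peak measured 257 and 3607 bp in replicate 1, and 367 and 3595 bp in replicate 2. Their lowest and highest folds were 1.39 and 1.98 in replicate 1, and 1.44 and 1.92 in replicate 2, all below the lowest folds of the nuclear broad regions, 3.71 and 4.09.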

How the results depend on the processing

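No paired analysis was possible because both libraries belong to a single group. Of 112 recomputed values, 76 stayed within 1.5 times the count or within the 95% interval and 36 moved. The cause was not tested except where a setting changes the members by construction, as other widths do. Direction against narrower regions was followed across these settings for median fold, central summits and neighbours within 5 kb only. At 600 bp 1151 of 13698 shared regions were broad, with 30.2% central summits at folds of 8 to 10 in replicate 2. Broad regions then made up 6.20% of the regions of chromosome 22 (95% Wilson interval 4.13 to 9.20) and 10.3% of those of chromosome 25. At 800 bp there were 246, and 2.12% of chromosome 25. At 1000 bp there were 39, with ratios of median folds of 1.62 and 1.61, central summits in 33.3% and 41.0%, or 16.7% and 22.2% at folds of 8 to 10, shared over joined length of 96.1%, and 0.282% and 0.265% of chromosomes 22 and 25. At a −log10 q of at least 5 the fold ratios were 1.31 in both replicates. At 10 they were 1.07 and 1.10, a neighbour within 5 kb was found for 3.56%, chromosome 25 had 11.6%, and width in 1 list was met in the other for 58.0% and 52.1%. With lists of equal length the fold ratios were 1.31 and 1.34. With either replicate left out, 1164 to 1234 peaks were broad, with fold ratios from 1.503 to 1.81, 10.4 to 19.0% with a neighbour within 5 kb and 2.47 to 5.42% of chromosome 22. With 60 or more extended reads, and the ratio of summed pileups recomputed as 2.35, 10 broad pairs were called. That was 2.56%, against 1.82% of all such pairs, while the main test called 0.369% against 0.428%, so the direction differed. Gaps to any other peak of a list, added after the data were seen, gave 18.9% and 9.98% within 5 kb. In each setting that redefined the members, broad regions had the higher median fold, the smaller share of central summits and the smaller share with a neighbour within 5 kb. None of these settings matched the summit pileup. Depth limits single sites, since the median broad summit of replicate 2 held 29 extended reads.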

Other observations

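The following classes were compared after the data were seen. In one-to-one pairs whose summit pileups summed to 60 or more, the pileup of replicate 1 over that of replicate 2 had a median of 1.97 in 391 broad pairs, with quartiles of 1.70 and 2.37. In 2757 pairs under 700 bp in both lists it was 2.38, with quartiles of 1.94 and 2.94. Regions that reached 700 bp in replicate 1 only had a median ratio of 2.12, and those that did in replicate 2 only 2.22. The quartile ranges of all these classes overlap. Over all one-to-one pairs, with no minimum sum, the median ratio was 1.93 in broad and 2 in narrower pairs. The wider contrast was thus seen only among pairs that passed the minimum.

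The 9 broad sites called higher in replicate 2 among these pairs, relative to a ratio of summed pileups of 2.35, included 1 of the 10 widest, that on chromosome 8 at 1200372. Its summit held 159 extended reads in replicate 1 and 106 in replicate 2, with an adjusted p of 0.0312 by the two-sided exact binomial test. On chromosome 12 at 14172636 to 14173497 the summit held 34 extended reads in each library, also with an adjusted p of 0.0312 by the exact test. On chromosome 5 at 23741131 to 23742137 it held 72 and 60, with an adjusted p of 0.0168 by the exact test. The main test over all 13094 pairs called none of the sites named here. For the chromosome 8 site its adjusted p was 0.348 by the exact binomial test.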
